A study of Mus musculus with 56 samples.

Results

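Monocytes and macrophages sorted from injured muscle of control mice were compared between day 7 and day 4 after injury. The comparison set the 3 libraries titled control muscle day 7 against the 3 titled control muscle day 4, 6 of the 56 libraries of the series, and used 12907 of the 57010 genes of the table, those with enough counts to be tested. The study depleted regulatory T cells (Treg) in mice with injuries to heart, bone, muscle or skin and sequenced the sorted monocytes and macrophages. The muscle injury was a volumetric muscle loss defect, in which a piece of muscle is removed. The day 7 and day 4 control mice were both 10-week-old wild-type C57BL/6J animals that received diphtheria toxin at 20 ng per g of body weight and kept their Treg, since they carried no toxin receptor. The depleted mice, used below only as a comparator, carried the Foxp3 DTR/GFP allele, which places the receptor in Treg, and received the same toxin. Each library was a bulk 3′ RNA-seq library. The labels name no sorting markers. Nor do they state whether each library is a mouse of its own, so the p-values rest on variation among libraries that could partly be technical.

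As background, circulating monocytes that express Ly6c2 and Ccr2 enter injured muscle, take up dead fibres and red cells, and release inflammatory cytokines. Over the following days the same cells differentiate into macrophages with low Ly6C, which secrete factors such as IGF1, GDF3 and GDF15 that act on muscle precursor cells, and the transcription factors PPARγ, NFIX and C/EBPβ take part in that switch. Uptake of debris loads the lysosome, whose cathepsins and glycosidases digest it, and macrophages rich in cholesterol express SPP1, GPNMB, TREM2 and FABP5. Macrophages also present peptides to CD4 T cells on class II molecules of the major histocompatibility complex (MHC), whose genes share a promoter module that the coactivator CIITA acts through.

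At day 7 most class II genes, several immediate early and NF-κB feedback genes, and most tested markers of dendritic cells, of T and NK cells and of fibroblasts were higher than at day 4. Several lysosomal enzymes, Arg1, Spp1, haemoglobins and several scavenger and complement receptors were lower. Of the 12907 genes tested, 935 (7.24%) changed, or were called, at an adjusted p under 0.05 in edgeR's quasi-likelihood test, 580 upward (4.49%) and 355 downward (2.75%). Counts of list members given below stand against these shares of 4.49% and 2.75%. A count near them is no result about its list. An unadjusted p under 0.05 was found for 2630 genes. The median log2 change was 1.58 over the genes that rose and -0.799 over those that fell, against -0.0051 over all genes tested. A change of at least 4-fold was seen in 223 of the genes that rose and in 15 of those that fell. Levels are counts scaled to a common library size that includes normalization factors (CPM). The median of the mean level at the higher day was 19.8 CPM for genes that rose and 80.5 CPM for genes that fell. Of the genes called, 925 had day 7 and day 4 libraries that did not overlap, against 3480 (27%) of all genes tested. Lack of overlap was a condition for naming genes from the ranking and the lists. Where stated for them below, it is a description and adds no support. Between 527 and 760 genes were called when 1 library was left out, with the lowest number without day 7 library 1, and 387 were called in each of these 6 fits. A dagger marks a gene that shares at least 0.05 of its 31-base words with another gene or at least 0.05 of its exon bases with another tested gene, so that its counts may be divided. Without such genes, and without genes whose sharing could not be measured, 710 calls were left, 462 upward and 248 downward.

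**Figure D1:**
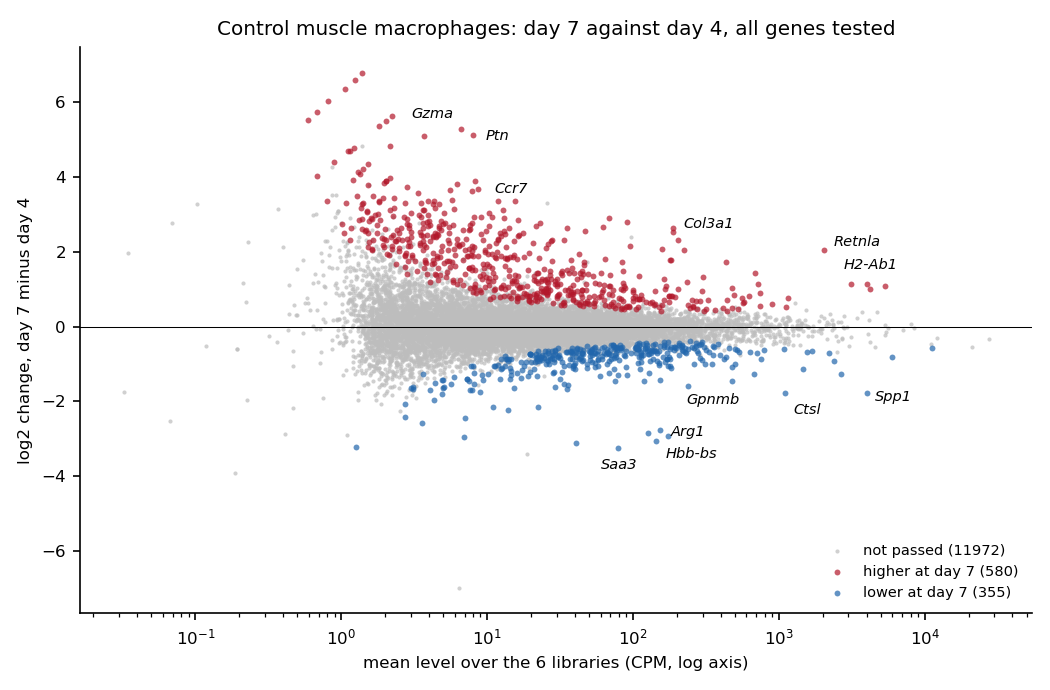
Each point is 1 of the 12907 genes tested in control muscle, with its log2 change, day 7 minus day 4, on the vertical axis and its mean CPM over the 6 libraries (log axis) on the horizontal axis. Red points are the 580 genes that rose and blue points the 355 that fell, and genes that rose reach larger changes and lie at lower levels than genes that fell.

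Total counts were 3439692 to 4576643 in the day 7 libraries and 4819826 to 6397434 in the day 4 libraries. The first principal component, 45.3% of the variance, separated the days, and log CPM values correlated at 0.9639 to 0.9675 among day 7 libraries and 0.9712 to 0.9743 among day 4 libraries. Macrophage identity was checked with 12 genes that macrophages express in all tissues, whose summed level was 16800, 17620 and 21240 CPM at day 7, against 22990, 23380 and 21610 CPM at day 4, an exact permutation p of 0.1, the smallest that 3 against 3 allows. Csf1r, the receptor for the macrophage growth factor CSF1, was at 596 ± 55.0 CPM at day 7 against 805 ± 30.2 CPM at day 4 (log2 change -0.43, adjusted p = 0.0616). Adgre1, which encodes F4/80, was at 284 ± 49.0 CPM at day 7 against 351 ± 25.0 CPM at day 4 (log2 change -0.31, adjusted p = 0.25). These and the following means are given with the SD of n = 3 libraries. Only Fcgr1, the high-affinity IgG receptor CD64, fell among the 12, with 74.0, 66.3 and 90.5 CPM at day 7, against 165, 184 and 193 CPM at day 4 (log2 change -1.24, SE 0.19, adjusted p = 0.000527). Foxp3, the defining gene of Treg, had 4, 0 and 0 counts in the day 7 libraries and 0 in each day 4 library, too few to test.

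The class II genes were among the most abundant transcripts that rose. Of 11 tested genes of class II presentation, 9 rose and none fell, with a median log2 change of 1.09. The number that rose was 8 without day 7 library 1 or 2, and 7 without day 7 library 3 or any 1 day 4 library. Without day 7 library 3, 1 gene fell. H2-Ab1, which encodes the β chain of I-A (ENSMUSG00000073421, GRCm38 chromosome 17, 34257689 to 34269419, plus strand), had 6704, 6084 and 9019 CPM at day 7, against 3951, 3276 and 3036 CPM at day 4 (log2 change 1.09, SE 0.17, adjusted p = 0.000578). All 3 day 7 libraries were above every day 4 library. H2-Aa, the α chain of I-A, had 5503, 4719 and 6314 CPM at day 7, against 2761, 2452 and 2267 CPM at day 4 (log2 change 1.14, SE 0.15, adjusted p = 0.000163). H2-Eb1, the β chain of I-E, had 4279, 3756 and 4821 CPM at day 7, against 2192, 1859 and 1731 CPM at day 4 (log2 change 1.15, SE 0.16, adjusted p = 0.000237). Both again showed no overlap between days. The peptide loading chaperone gene H2-DMb2† averaged 126 ± 44.8 CPM at day 7 against 45.0 ± 12.7 CPM at day 4 (log2 change 1.49, adjusted p = 0.00401). Named to complete the list, H2-DMa†, H2-DMb1† and the invariant chain gene Cd74 had log2 changes of 0.81, 1.05 and 1.00 (adjusted p = 0.00528, 0.000607 and 0.00145). The DO genes H2-Oa and H2-Ob, which encode an inhibitor of the DM chaperone, had log2 changes of 1.27 and 1.20, calls that were lost for H2-Oa without day 7 libraries 2 or 3 or day 4 libraries 1, 2 or 3 (adjusted p up to 0.219) and for H2-Ob without day 7 libraries 1 or 3 or day 4 libraries 1, 2 or 3 (adjusted p up to 0.221). Ciita had 89.7, 59.3 and 65.7 CPM at day 7, against 73.1, 54.6 and 45.9 CPM at day 4 (log2 change 0.31, SE 0.23, adjusted p = 0.51), with a difference that did not pass the test. Ctss, the cathepsin that trims the invariant chain, had 3176, 3620 and 4394 CPM at day 7, against 5207, 6033 and 5156 CPM at day 4 (log2 change -0.55, SE 0.17, adjusted p = 0.057), which did not pass either.

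Because these genes moved together, promoters are shown for 6 class II members that rose. Their starts lie in the RefSeq table, and their last 140 bases before the start hold GATTGG, the core of the Y box. The Y box is the element bound by the factor NF-Y in class II promoters. The window searched on both strands was 250 bases before to 50 after each start in GRCm38.p6, for GATTGG and its reverse CCAATC, which are the capitals below. The motif was present in the window of 8 of 9 listed genes with an entry, against 18.2% of 27025 gene symbols. It was present in 7 of the 7 genes with an entry that rose and not in Ctss, the 1 tested gene with an entry that was not called. The longer motif CTGATTGG, also searched, was present in 4 of the 9 genes, against 4.7% of all symbols. It was found in 3 of the 7 that rose. A match is a description of the letters and not a measured binding site.
H2-Aa (chr17:34287824-34287963, minus strand): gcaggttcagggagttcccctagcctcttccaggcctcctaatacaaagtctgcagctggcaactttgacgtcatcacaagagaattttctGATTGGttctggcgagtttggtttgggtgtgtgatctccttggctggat
H2-Eb1 (chr17:34305727-34305866, plus strand): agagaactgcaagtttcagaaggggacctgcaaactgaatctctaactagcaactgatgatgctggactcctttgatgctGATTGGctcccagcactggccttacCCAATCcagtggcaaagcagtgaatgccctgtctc
H2-DMb1 (chr17:34153051-34153190, plus strand): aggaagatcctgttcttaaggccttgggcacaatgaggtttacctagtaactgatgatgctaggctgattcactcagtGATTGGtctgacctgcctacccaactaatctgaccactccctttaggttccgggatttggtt
H2-DMb2 (chr17:34145109-34145248, plus strand): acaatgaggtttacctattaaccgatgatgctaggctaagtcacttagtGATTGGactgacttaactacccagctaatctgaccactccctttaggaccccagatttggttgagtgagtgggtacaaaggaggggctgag
H2-Oa (chr17:34092239-34092378, plus strand): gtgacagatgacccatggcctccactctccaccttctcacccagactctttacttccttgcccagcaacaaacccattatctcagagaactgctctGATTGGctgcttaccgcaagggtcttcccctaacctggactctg
H2-Ob (chr17:34238765-34238904, plus strand): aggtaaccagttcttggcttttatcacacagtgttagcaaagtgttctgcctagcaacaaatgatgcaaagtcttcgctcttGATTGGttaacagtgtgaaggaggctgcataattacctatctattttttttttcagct

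Markers of dendritic cells, which are rich in class II, were also higher at day 7. Of 10 tested dendritic cell markers 8 rose (5 without day 7 library 1), and their summed level was 554, 444 and 507 CPM at day 7, against 358, 357 and 326 CPM at day 4. Ccr7, the receptor that guides dendritic cells to lymph nodes, had 37.0, 40.9 and 35.2 CPM at day 7, against 4.13, 8.71 and 4.70 CPM at day 4 (log2 change 2.69, SE 0.28, adjusted p = 1.45e-05). Fscn1, an actin bundling protein of mature dendritic cells, had 43.0, 44.6 and 41.8 CPM at day 7, against 7.84, 12.8 and 7.21 CPM at day 4 (log2 change 2.22, SE 0.22, adjusted p = 1.04e-05). No library of day 4 reached a day 7 value for either gene. Cd209a, which marks monocyte-derived dendritic cells, averaged 76.5 ± 17.1 CPM at day 7 against 30.2 ± 13.4 CPM at day 4 (log2 change 1.35, adjusted p = 0.00204). Il4i1†, a secreted amino acid oxidase, averaged 17.1 ± 1.46 CPM at day 7 against 4.49 ± 0.668 CPM at day 4 (log2 change 1.94, adjusted p = 5.61e-05). Bst2, which interferon also induces, was the 1 marker that fell, with 156 ± 32.7 CPM at day 7 against 227 ± 15.4 CPM at day 4 (log2 change -0.54, adjusted p = 0.0487), and this call was lost without day 7 libraries 1 or 2 or day 4 libraries 1, 2 or 3 (adjusted p up to 0.186). Xcr1, Clec9a, Siglech and Itgae were too low to test. B cells express class II as well. Of 2 tested B cell markers 1 rose, Cd79b (0 without day 7 library 2, 0 without day 7 library 3, 0 without day 4 library 2, 0 without day 4 library 3), and the summed level of the B cell list was 139, 167 and 194 CPM at day 7, against 122, 96.8 and 92.4 CPM at day 4. Mzb1 was at 0 in all 6 libraries, and Cd79a, Ms4a1 and Pax5 were too low to test. Of 7 tested endothelial markers 1 rose (0 without day 7 library 1, 0 without day 4 library 2, 0 without day 4 library 3), and their summed level was 68.2, 58.3 and 64.5 CPM at day 7, against 28.1, 44.9 and 36.4 CPM at day 4. The part of these cell types in the class II change was not tested. In bulk libraries, fewer or more cells of a type and less or more RNA per cell cannot be told apart.

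Several immediate early genes and inhibitors of NF-κB rose at day 7. Of 28 tested genes of this list 11 rose and none fell, with a median log2 change of 0.57. Nfkbia, which encodes the inhibitor IκBα, had 979, 999 and 982 CPM at day 7, against 458, 409 and 464 CPM at day 4 (log2 change 1.15, SE 0.15, adjusted p = 0.000125). Tnfaip3, which encodes the NF-κB inhibitor A20, had 149, 179 and 142 CPM at day 7, against 67.3, 58.2 and 59.7 CPM at day 4 (log2 change 1.35, SE 0.18, adjusted p = 0.000151). The 2 days were fully separate for both genes. Egr2, a zinc finger factor of activated macrophages, had 186, 184 and 192 CPM at day 7, against 106, 91.7 and 92.8 CPM at day 4 (log2 change 0.95, SE 0.15, adjusted p = 0.000578). The nuclear receptor gene Nr4a1, which the non-classical monocyte depends on, averaged 237 ± 36.8 CPM at day 7 against 134 ± 9.02 CPM at day 4 (log2 change 0.83, adjusted p = 0.00251), and its relative Nr4a3 averaged 24.9 ± 6.82 CPM at day 7 against 7.17 ± 1.49 CPM at day 4 (log2 change 1.81, adjusted p = 0.00161). Klf4, a monocyte factor, averaged 224 ± 13.8 CPM at day 7 against 127 ± 5.59 CPM at day 4 (log2 change 0.82, adjusted p = 0.00127). Myc, a driver of growth, averaged 39.8 ± 3.81 CPM at day 7 against 14.3 ± 3.25 CPM at day 4 (log2 change 1.49, adjusted p = 0.00198). Not every immediate early gene took part. Fos had 1014, 1265 and 1301 CPM at day 7, against 1287, 1260 and 1209 CPM at day 4 (log2 change -0.07, SE 0.13, adjusted p = 0.838), and its sets of libraries overlapped. Dnajb1, which encodes a heat shock cochaperone, averaged 80.4 ± 20.5 CPM at day 7 against 42.2 ± 5.40 CPM at day 4 (log2 change 0.94, adjusted p = 0.0046). It was the 1 gene of 17 tested heat shock genes that rose, with none that fell. This count is near the 4.49% of all genes tested that rose and is no result about the list. Immediate early transcripts also respond to tissue dissociation, and no measure of handling is given, so its part in the result was not tested.

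Among 17 tested inflammatory cytokine genes 5 rose and 1 fell, with a median log2 change of 0.60. Tnf had 35.1, 42.5 and 38.8 CPM at day 7, against 21.5, 23.0 and 21.3 CPM at day 4 (log2 change 0.82, SE 0.17, adjusted p = 0.00554). Every day 7 library was above every day 4 library. Il1b had 321, 302 and 326 CPM at day 7, against 178, 181 and 218 CPM at day 4 (log2 change 0.72, SE 0.16, adjusted p = 0.0111), a call that was lost without day 4 libraries 1 or 2 (adjusted p up to 0.0591). Il12b, the shared subunit of IL-12 and IL-23, had 8.47, 9.65 and 5.08 CPM at day 7, against 0.206, 0.581 and 1.41 CPM at day 4 (log2 change 3.29, SE 0.55, adjusted p = 0.00108), low in all libraries of day 4. A gene this low at day 4 could enter the test only through groups where it was higher. Tnfsf9†, the T cell costimulator 4-1BB ligand, had 66.9, 81.7 and 63.9 CPM at day 7, against 23.3, 18.0 and 22.6 CPM at day 4 (log2 change 1.73, SE 0.19, adjusted p = 1.79e-05). Il16†, a T cell attractant, fell, with 29.4 ± 3.04 CPM at day 7 against 51.6 ± 6.71 CPM at day 4 (log2 change -0.81, adjusted p = 0.00487). The anti-inflammatory cytokine Il10 had 6.61, 9.04 and 9.26 CPM at day 7, against 4.54, 3.87 and 6.11 CPM at day 4 (log2 change 0.76, SE 0.37, adjusted p = 0.253). Tgfb1 averaged 16.6 ± 2.80 CPM at day 7 against 17.9 ± 1.52 CPM at day 4 (log2 change -0.10, adjusted p = 0.833), neither past the threshold. The count of cytokine genes that rose was 3 without day 4 library 1.

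Of 13 tested CC chemokine genes 3 rose (1 without day 7 library 1, 1 without day 4 library 3) and none fell. Of 11 tested CXC chemokine genes 2 rose (1 without day 7 library 1, 1 without day 4 library 2) and 2 fell, Ppbp and Pf4 (0 without day 7 library 1, 0 without day 7 library 2, 1 without day 7 library 3, 0 without day 4 library 2, 0 without day 4 library 3). Pf4, platelet factor 4, averaged 911 ± 198 CPM at day 7 against 1999 ± 473 CPM at day 4 (log2 change -1.13, adjusted p = 0.0244), and this call was lost without day 7 libraries 1 or 2 or day 4 libraries 2 or 3 (adjusted p up to 0.112). Ppbp, a platelet chemokine, averaged 8.22 ± 1.04 CPM at day 7 against 36.6 ± 18.5 CPM at day 4 (log2 change -2.15, adjusted p = 0.0214). Neither fall passed without the filter on low counts. Ccl5, an attractant of T cells, had 138, 151 and 182 CPM at day 7, against 27.9, 42.6 and 34.3 CPM at day 4 (log2 change 2.16, SE 0.40, adjusted p = 0.00731). Cxcl12, a retention signal that stromal cells also make, averaged 13.2 ± 4.11 CPM at day 7 against 2.99 ± 0.991 CPM at day 4 (log2 change 2.13, adjusted p = 0.00117). Ccl22 averaged 21.4 ± 5.70 CPM at day 7 against 6.20 ± 5.39 CPM at day 4 (log2 change 1.81, adjusted p = 0.0234), and this call was lost without day 7 library 1 or day 4 libraries 1 or 3 (adjusted p up to 0.112). Of 36 tested cytokine and chemokine receptor genes 5 rose and 7 fell (3 rose without day 7 library 2, day 4 library 1 or day 4 library 3, and 2 fell without day 7 library 1 and 3 without day 4 library 2). Il4ra, the receptor chain shared by IL-4 and IL-13, had 128, 134 and 123 CPM at day 7, against 202, 272 and 224 CPM at day 4 (log2 change -0.85, SE 0.14, adjusted p = 0.000806), with all day 7 libraries below those of day 4. Csf2ra, a chain of the GM-CSF receptor, averaged 708 ± 92.7 CPM at day 7 against 415 ± 6.98 CPM at day 4 (log2 change 0.77, adjusted p = 0.00137). Ccrl2, a chemerin receptor without signalling of its own, averaged 131 ± 2.77 CPM at day 7 against 68.7 ± 8.32 CPM at day 4 (log2 change 0.94, adjusted p = 0.0013). Il21r averaged 21.8 ± 2.77 CPM at day 7 against 45.2 ± 8.57 CPM at day 4 (log2 change -1.05, adjusted p = 0.00488). Ccr2, which brings monocytes out of marrow, had 569, 514 and 601 CPM at day 7, against 545, 566 and 485 CPM at day 4 (log2 change 0.08, SE 0.14, adjusted p = 0.826), and the days overlapped.

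Marker genes of monocyte subsets separated in part. Of 20 tested classical monocyte genes none rose and 3 fell, with a median log2 change of -0.22. Ly6c2, the gene of the Ly6C antigen, had 108, 82.8 and 134 CPM at day 7, against 105, 180.4 and 179 CPM at day 4 (log2 change -0.52, SE 0.44, adjusted p = 0.586), which did not pass. Chil3†, the chitinase-like protein Ym1, averaged 45.9 ± 12.1 CPM at day 7 against 111 ± 39.4 CPM at day 4 (log2 change -1.29, adjusted p = 0.00298). Of 14 tested non-classical monocyte genes 5 rose and 1 fell, with a median of 0.71. Ace, angiotensin-converting enzyme, had 9.71, 9.86 and 8.66 CPM at day 7, against 0.826, 2.32 and 1.72 CPM at day 4 (log2 change 2.51, SE 0.44, adjusted p = 0.00145). Cd300e had 12.2, 6.37 and 7.47 CPM at day 7, against 1.45, 1.16 and 1.25 CPM at day 4 (log2 change 2.74, SE 0.56, adjusted p = 0.00522). Both are typical of patrolling monocytes, and neither showed overlap between days, which was a condition for naming them. Both were low at day 4 and could enter the test only through groups where they were higher. The gene that fell was Apoc2†, an apolipoprotein, which averaged 84.0 ± 13.2 CPM at day 7 against 223 ± 26.8 CPM at day 4 (log2 change -1.41, adjusted p = 9.43e-05).

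**Figure D2:**
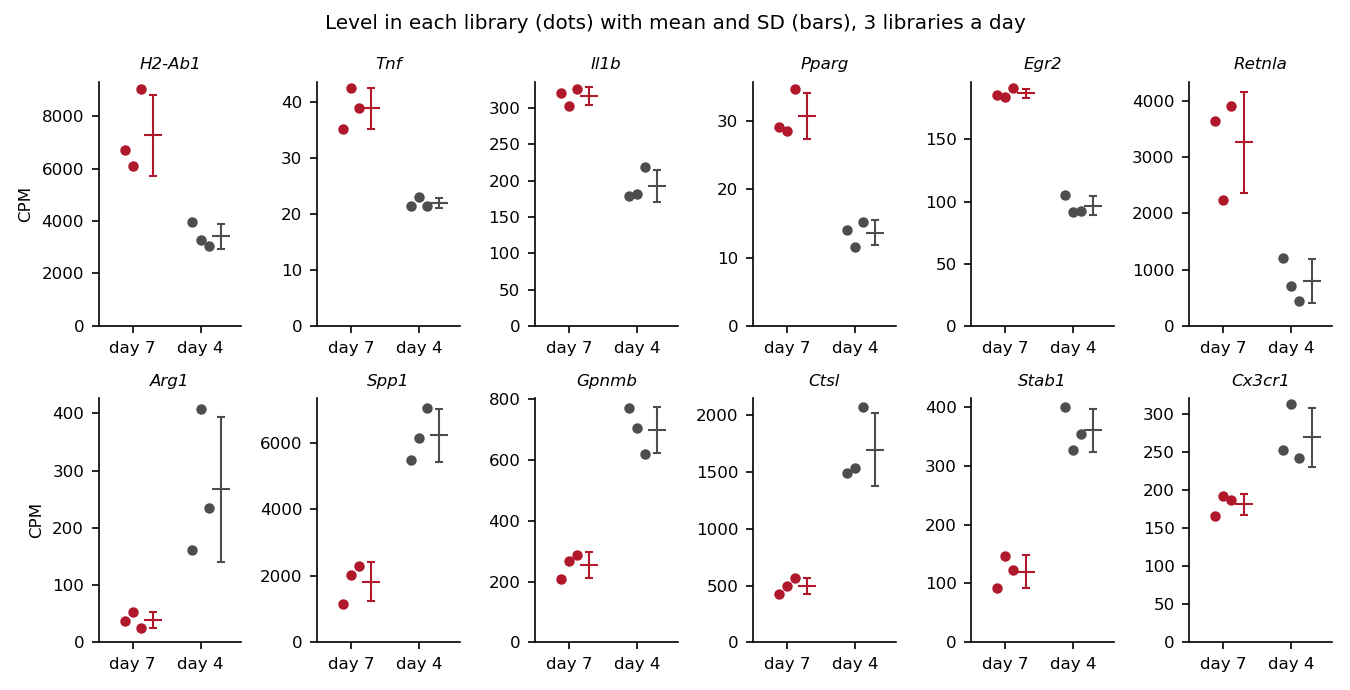
CPM of 12 genes in each control muscle library (dots), day 7 left and day 4 right in each panel, with the mean and SD of 3 libraries as bars. H2-Ab1, Tnf, Il1b, Pparg, Egr2 and Retnla lie higher in all day 7 libraries, and Arg1, Spp1, Gpnmb, Ctsl, Stab1 and Cx3cr1 lie lower in all of them.

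A group of lysosomal genes fell at day 7. Of 38 tested, 14 fell and 1 rose, with a median log2 change of -0.40. The count that fell was 4 without day 7 library 1, 8 without day 4 library 1, 7 without day 4 library 2 and 8 without day 4 library 3. Ctsl†, which encodes the protease cathepsin L (ENSMUSG00000021477, GRCm38 chromosome 13, 64359337 to 64370890, minus strand), had 421, 496 and 569.9 CPM at day 7, against 1489, 1531 and 2066 CPM at day 4 (log2 change -1.78, SE 0.19, adjusted p = 1.79e-05). The highest day 7 value was below the lowest day 4 value. Ctsd†, cathepsin D, had 1221, 1755 and 1768 CPM at day 7, against 3771, 4102 and 3516 CPM at day 4 (log2 change -1.26, SE 0.20, adjusted p = 0.00084). Lamp1†, a glycoprotein of the lysosomal membrane, had 270, 319 and 328 CPM at day 7, against 616, 686 and 639.9 CPM at day 4 (log2 change -1.08, SE 0.17, adjusted p = 0.000649). Named after its values were seen because its promoter is shown next, Atp6v1a, a subunit of the proton pump, averaged 169.8 ± 31.4 CPM at day 7 against 262 ± 13.2 CPM at day 4 (log2 change -0.63, adjusted p = 0.00638). The gene that rose was Ctsk, the collagen-degrading cathepsin K, which averaged 70.4 ± 42.0 CPM at day 7 against 22.3 ± 6.75 CPM at day 4 (log2 change 1.65, adjusted p = 0.0101).

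Many lysosomal promoters carry the CLEAR element, to which the factors TFEB and TFE3 bind, and its core is shown for 3 genes that fell. TCACGTG or its reverse CACGTGA, which overlap by 6 bases at a palindromic site and stand in capitals below, was found in the window of 11 of the 31 listed genes with an entry in the RefSeq table, against 4.29% of all 27025 gene symbols. It was present in 4 of 12 genes called in either direction and in 7 of 19 not called, so its presence did not separate them. The stretches are the last 140 bases before the start in GRCm38.p6.
Ctsd (chr7:142387828-142387967, minus strand): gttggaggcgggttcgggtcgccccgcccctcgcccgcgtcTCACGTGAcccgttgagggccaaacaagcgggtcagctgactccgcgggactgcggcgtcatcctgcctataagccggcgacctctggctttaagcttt
Lamp1 (chr8:13159021-13159160, plus strand): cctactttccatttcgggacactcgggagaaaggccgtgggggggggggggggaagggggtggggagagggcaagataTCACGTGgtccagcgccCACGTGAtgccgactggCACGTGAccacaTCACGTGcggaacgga
Atp6v1a (chr16:44139260-44139399, minus strand): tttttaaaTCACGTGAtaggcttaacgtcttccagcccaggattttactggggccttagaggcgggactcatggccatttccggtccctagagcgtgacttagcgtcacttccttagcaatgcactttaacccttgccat

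Several genes of lipid-laden macrophages fell as well. Of 24 tested, 8 fell and 3 rose (5 fell without day 7 library 1 or day 4 library 2, and 1 rose without day 7 library 2 or day 4 library 3). Spp1†, the secreted matrix protein osteopontin (ENSMUSG00000029304, GRCm38 chromosome 5, 104435118 to 104441050, plus strand), had 1170, 2023 and 2297 CPM at day 7, against 5484, 6143 and 7058 CPM at day 4 (log2 change -1.77, SE 0.23, adjusted p = 0.000158). Gpnmb, a membrane glycoprotein of loaded lysosomes, had 207, 269 and 288 CPM at day 7, against 772, 707 and 621 CPM at day 4 (log2 change -1.46, SE 0.21, adjusted p = 0.000383), and the fatty acid carrier gene Fabp5† had 368, 434 and 404 CPM at day 7, against 773, 906 and 1199 CPM at day 4 (log2 change -1.26, SE 0.22, adjusted p = 0.00198). The days did not overlap for any of these 3 genes. Syngr1, a vesicle protein, averaged 52.7 ± 10.4 CPM at day 7 against 129.8 ± 14.2 CPM at day 4 (log2 change -1.30, adjusted p = 0.000183). Trem2, the lipid receptor, had 385, 606 and 634 CPM at day 7, against 949.9, 949 and 1031 CPM at day 4 (log2 change -0.85, SE 0.22, adjusted p = 0.0224), a call lost without day 7 library 1 or day 4 libraries 1, 2 or 3 (adjusted p up to 0.119). Among genes of cholesterol efflux and its regulation 4 of 26 fell and 2 rose (1 rose without day 7 libraries 1 or 2 or day 4 libraries 1 or 2). Abca1, the cholesterol exporter, averaged 57.7 ± 19.6 CPM at day 7 against 122 ± 14.1 CPM at day 4 (log2 change -1.07, adjusted p = 0.003). Nr1h3, the sterol-sensing receptor LXRα, averaged 54.6 ± 7.99 CPM at day 7 against 85.2 ± 5.04 CPM at day 4 (log2 change -0.64, adjusted p = 0.00973), which was lost without day 7 library 3 (adjusted p up to 0.0529).

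Scavenger receptors and other genes of tissue-resident macrophages fell in part, with 7 of 21 that fell, 2 that rose and a median log2 change of -0.53. The number that fell was 2 without day 7 library 1 and 3 without day 4 library 2 or 3. Stab1, a scavenger receptor for modified lipoproteins, had 91.9, 146 and 122 CPM at day 7, against 399, 326 and 353 CPM at day 4 (log2 change -1.58, SE 0.20, adjusted p = 0.000117). All day 7 values lay under the lowest day 4 value. Cbr2†, a carbonyl reductase, averaged 233 ± 38.7 CPM at day 7 against 465 ± 27.4 CPM at day 4 (log2 change -1.0, adjusted p = 0.00423), and the transcription factor gene Maf averaged 116 ± 22.8 CPM at day 7 against 205 ± 40.1 CPM at day 4 (log2 change -0.82, adjusted p = 0.00686), a call lost without day 7 library 1 (adjusted p up to 0.0509). The C-type lectin genes Cd209f† and Cd209d rose, with log2 changes of 1.58 and 1.63 (adjusted p = 0.0062 and 0.00268). Lyve1, the hyaluronan receptor of perivascular macrophages, had 17.4, 13.1 and 23.6 CPM at day 7, against 31.2, 21.3 and 19.0 CPM at day 4 (log2 change -0.41, SE 0.35, adjusted p = 0.583). Folr2, a folate receptor, had 282, 255 and 404 CPM at day 7, against 436, 430.4 and 504 CPM at day 4 (log2 change -0.54, SE 0.18, adjusted p = 0.0858). Neither passed the test. Mrc1, the mannose receptor, averaged 212 ± 16.7 CPM at day 7 against 279 ± 13.1 CPM at day 4 (log2 change -0.39, adjusted p = 0.0481), and its call was lost without any 1 of the 6 libraries (adjusted p up to 0.209).

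Genes that go with Cx3cr1 in resident macrophages split, with 5 of 17 that fell and 2 that rose (2 fell without day 7 library 1). Cx3cr1, the receptor for the membrane chemokine fractalkine, had 166, 193 and 187 CPM at day 7, against 253, 314 and 242 CPM at day 4 (log2 change -0.57, SE 0.13, adjusted p = 0.0115), a call lost without day 7 library 1 or day 4 library 2 (adjusted p up to 0.081). Itgb5†, an integrin chain used in uptake of dying cells, had 50.8, 71.9 and 67.2 CPM at day 7, against 207, 185 and 129 CPM at day 4 (log2 change -1.46, SE 0.19, adjusted p = 0.00013). Olfml3 averaged 19.6 ± 3.15 CPM at day 7 against 45.7 ± 1.99 CPM at day 4 (log2 change -1.22, adjusted p = 0.00153). Sparc, a matrix protein that fibroblasts make in quantity, had 349.5, 404 and 335 CPM at day 7, against 121, 74.7 and 66.1 CPM at day 4 (log2 change 2.06, SE 0.19, adjusted p = 6.34e-06). Cd81, a tetraspanin, averaged 431 ± 6.62 CPM at day 7 against 172 ± 35.7 CPM at day 4 (log2 change 1.33, adjusted p = 0.000151). Of 18 tested efferocytosis genes 3 fell and none rose, Stab1, Itgb5† and Itgav, and the call of Itgav (log2 change -0.86) was lost without day 7 libraries 1 or 3 or day 4 libraries 1 or 2 (adjusted p up to 0.156).

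Several receptors for complement and antibody fell. C3ar1, the receptor for the fragment C3a, had 244, 242 and 307 CPM at day 7, against 448, 446 and 445 CPM at day 4 (log2 change -0.76, SE 0.13, adjusted p = 0.00137). C5ar1, for C5a, averaged 315 ± 44.0 CPM at day 7 against 549 ± 72.7 CPM at day 4 (log2 change -0.80, adjusted p = 0.00508). Days were separate for both. In all, 4 of 17 complement genes fell and 2 rose. The genes that rose were C1s1†, a protease of the classical pathway, with 6.50 ± 1.75 CPM at day 7 against 0.718 ± 0.292 CPM at day 4 (log2 change 3.13, adjusted p = 0.000673), and its inhibitor gene Serping1. Serping1 averaged 28.8 ± 3.98 CPM at day 7 against 4.07 ± 1.72 CPM at day 4 (log2 change 2.84, adjusted p = 0.000145). C1s1†, at 0.718 CPM at day 4, could enter the test only through groups where it was higher. C1qa, a chain of C1q, had 696, 535 and 1129 CPM at day 7, against 1130, 829.7 and 875 CPM at day 4 (log2 change -0.27, SE 0.25, adjusted p = 0.622), with no call. C1qc had a log2 change of -0.70 that was lost without day 7 libraries 1 or 2 (adjusted p up to 0.0753). Of 6 tested Fc receptor genes Fcgr1, given above, and Fcgr4, which averaged 64.5 ± 7.68 CPM at day 7 against 111 ± 5.13 CPM at day 4 (log2 change -0.79, adjusted p = 0.00424), fell and none rose.

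Genes induced by IL-4 and IL-13 moved apart from one another. Of 23 tested 7 rose and 5 fell, with a median log2 change of 1.03 (4 rose without day 7 library 1 or day 4 library 3, and 3 fell without any 1 library but day 4 library 1). Arg1, the enzyme arginase 1 (ENSMUSG00000019987, GRCm38 chromosome 10, 24915221 to 24927484, minus strand), had 37.2, 53.6 and 25.7 CPM at day 7, against 161, 407 and 234 CPM at day 4 (log2 change -2.77, SE 0.51, adjusted p = 0.00924). Each day 7 value was below every day 4 value, although day 4 values spread widely. Retnla†, the secreted protein RELMα, had 3639, 2239 and 3907 CPM at day 7, against 1214, 716 and 442 CPM at day 4 (log2 change 2.05, SE 0.48, adjusted p = 0.026), opposite in direction to Arg1, and its call was lost without day 7 libraries 1 or 3 or day 4 libraries 2 or 3 (adjusted p up to 0.0796). Mgl2†, the galactose lectin CD301b, had 376, 232 and 229 CPM at day 7, against 98.7, 89.0 and 57.8 CPM at day 4 (log2 change 1.77, SE 0.22, adjusted p = 0.000121). Every day 7 library exceeded every day 4 library for it. Ear2†, a ribonuclease of the eosinophil family, averaged 128 ± 52.3 CPM at day 7 against 39.0 ± 12.9 CPM at day 4 (log2 change 1.72, adjusted p = 0.0024). Socs2†, a suppressor of cytokine signalling, averaged 29.3 ± 3.30 CPM at day 7 against 12.4 ± 2.13 CPM at day 4 (log2 change 1.24, adjusted p = 0.0042). Of 15 tested genes of arginine metabolism Arg1 alone fell, and none rose. Among 19 tested C-type lectin genes 5 rose and 1 fell. Clec4b1†, a lectin of dendritic cells, averaged 281 ± 22.9 CPM at day 7 against 82.1 ± 16.4 CPM at day 4 (log2 change 1.77, adjusted p = 1.3e-06), and the gene that fell was Mrc1, described above.

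Transcription factors of the macrophage lineage also changed, 7 of 29 upward and 4 downward (2 downward without day 7 library 1 or 3). Pparg, a lipid-activated receptor, had 29.1, 28.5 and 34.6 CPM at day 7, against 14.0, 11.6 and 15.2 CPM at day 4 (log2 change 1.17, SE 0.22, adjusted p = 0.0029). Irf4, a factor of the IL-4 response and of dendritic cells, had 19.4, 11.3 and 11.9 CPM at day 7, against 4.96, 4.06 and 4.39 CPM at day 4 (log2 change 1.67, SE 0.30, adjusted p = 0.00161). Id2, an inhibitor of helix-loop-helix factors, had 330.3, 329.8 and 314 CPM at day 7, against 138, 146 and 144 CPM at day 4 (log2 change 1.19, SE 0.11, adjusted p = 6.34e-06). All 3 were higher in each day 7 library. Id3 averaged 41.8 ± 5.54 CPM at day 7 against 18.7 ± 3.65 CPM at day 4 (log2 change 1.15, adjusted p = 0.00194) and Bhlhe40, a factor of monocyte proliferation and cytokine control, averaged 94.4 ± 10.1 CPM at day 7 against 44.8 ± 4.64 CPM at day 4 (log2 change 1.08, adjusted p = 0.000466). Irf8, which sets monocyte fate, was lower, with 147, 153 and 161 CPM at day 7, against 271, 255 and 253 CPM at day 4 (log2 change -0.76, SE 0.14, adjusted p = 0.00165). Nfix, a regulator of the switch of macrophages in muscle in mice, had 35.3, 20.1 and 20.6 CPM at day 7, against 24.2, 14.9 and 24.8 CPM at day 4 (log2 change 0.26, SE 0.27, adjusted p = 0.669), and the days overlapped.

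Growth factors for muscle cells did not move as a group. Of 23 tested 4 rose and 4 fell (1 or 2 rose without any 1 library, and 1 fell without day 7 library 1 and 2 without day 7 library 3 or day 4 library 2). Gdf15, a TGFβ family member that acts on myoblasts, had 163, 271 and 254 CPM at day 7, against 103, 94.2 and 126 CPM at day 4 (log2 change 1.09, SE 0.24, adjusted p = 0.0101), a call lost without day 4 library 2 (adjusted p up to 0.0558). Grn, progranulin, had 1488, 1474 and 2038 CPM at day 7, against 3063, 3232 and 3134 CPM at day 4 (log2 change -0.92, SE 0.18, adjusted p = 0.00339), with all day 7 values below. Igf1, insulin-like growth factor 1, had 372, 358 and 401 CPM at day 7, against 530.2, 449 and 608 CPM at day 4 (log2 change -0.49, SE 0.16, adjusted p = 0.0778). Gdf3 had 15.3, 17.0 and 13.4 CPM at day 7, against 24.4, 19.4 and 19.6 CPM at day 4 (log2 change -0.46, SE 0.21, adjusted p = 0.232). Neither passed the threshold. Glul†, glutamine synthetase, which supplies glutamine to muscle stem cells in mice, averaged 129 ± 18.8 CPM at day 7 against 211 ± 6.15 CPM at day 4 (log2 change -0.72, adjusted p = 0.00932), a call lost without day 7 library 1 (adjusted p up to 0.0683).

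Proteases of the matrix went both ways, 5 of 19 upward and 2 downward (2 rose without day 4 library 1 and 3 without day 4 library 2 or 3, and 1 fell without day 7 library 1 or any 1 day 4 library). Mmp8, the collagenase of neutrophils and monocytes, had 4.13, 4.93 and 2.99 CPM at day 7, against 11.2, 19.2 and 23.7 CPM at day 4 (log2 change -2.14, SE 0.31, adjusted p = 0.000341). Mmp2, gelatinase A, averaged 20.6 ± 4.31 CPM at day 7 against 5.84 ± 3.56 CPM at day 4 (log2 change 1.85, adjusted p = 0.00377). Plaur, the urokinase receptor, averaged 235 ± 10.3 CPM at day 7 against 132 ± 7.87 CPM at day 4 (log2 change 0.83, adjusted p = 0.0025). The elastase gene Mmp12 had 401, 462 and 349 CPM at day 7, against 248, 257 and 237 CPM at day 4 (log2 change 0.71, SE 0.17, adjusted p = 0.0142), a call lost without day 7 library 2 or day 4 libraries 1 or 3 (adjusted p up to 0.0679).

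**Figure D3:**
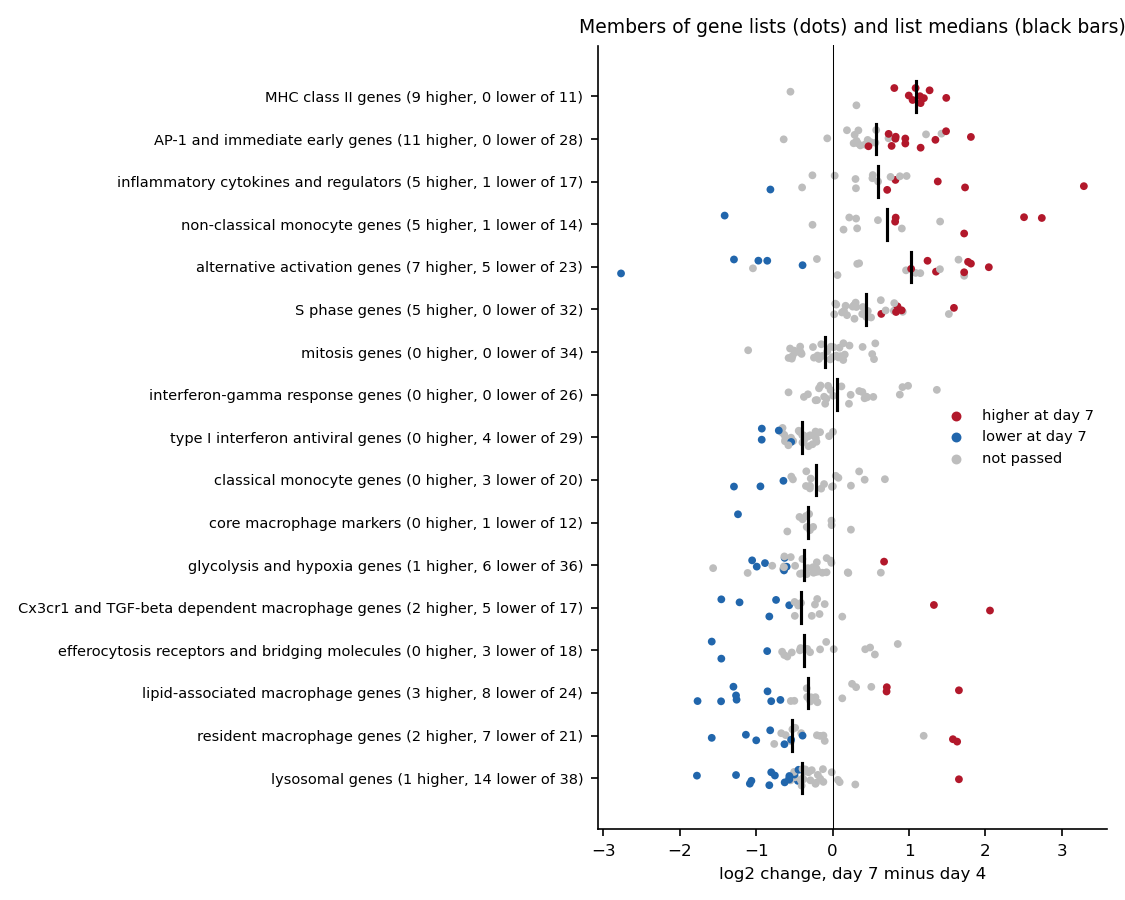
Log2 change, day 7 minus day 4, of each tested member of 17 gene lists (dots) with the median of each list (black bars). Red dots rose, blue dots fell and grey dots did not pass. The class II median lies at 1.09 with 9 of 11 members red, and the lysosomal median at -0.40 with 14 of 38 members blue.

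Several programs showed few or no calls. None of the 40 tested genes of oxidative phosphorylation, the 13 mitochondrially encoded genes or the 26 tested genes induced by interferon γ passed the test, with medians of 0.05, -0.01 and 0.06. Of 29 tested genes induced by type I interferon 4 fell and none rose, with a median of -0.40, and 28 of the 29 values were negative. Trim30a† averaged 101 ± 27.1 CPM at day 7 against 192 ± 21.5 CPM at day 4 (log2 change -0.93, adjusted p = 0.00153). The number of type I interferon genes that fell was 1 without day 7 library 1, day 7 library 2 or day 4 library 3, and 2 without day 4 library 2. Of 36 tested glycolysis and hypoxia genes 6 fell and 1 rose (3 fell without day 7 library 3). The gene that rose was Pfkp†, a phosphofructokinase, whose call was lost without day 7 libraries 1 or 3 or day 4 libraries 1, 2 or 3 (adjusted p up to 0.202). Of those that fell, Gapdh† averaged 866 ± 64.2 CPM at day 7 against 1314 ± 84.6 CPM at day 4 (log2 change -0.60, adjusted p = 0.00887). Hk3, the hexokinase of myeloid cells, averaged 35.5 ± 2.70 CPM at day 7 against 65.6 ± 5.18 CPM at day 4 (log2 change -0.88, adjusted p = 0.00562). Of 34 tested genes of mitosis none was called, and Mki67, a marker of cycling cells, had 13.8, 22.2 and 8.96 CPM at day 7, against 18.2, 11.4 and 11.4 CPM at day 4 (log2 change 0.16, SE 0.29, adjusted p = 0.829). DNA replication genes had a median of 0.44, and 5 of 32 rose. That number was 0 without day 7 library 1, 3 without day 7 library 3, 2 without day 4 library 1 or 2 and 1 without day 4 library 3.

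Genes of cells other than macrophages were among those that rose most. Of 19 tested fibroblast and mural cell genes 15 rose and none fell, with a median log2 change of 2.32. Their summed level was 1405, 1525 and 1505 CPM at day 7, against 357, 223 and 225 CPM at day 4. Postn, the matrix protein periostin, had 114, 124 and 123 CPM at day 7, against 22.7, 11.2 and 14.4 CPM at day 4 (log2 change 2.91, SE 0.24, adjusted p = 1.34e-06). Col3a1, a chain of fibrillar collagen, had 323, 368 and 288 CPM at day 7, against 74.5, 44.3 and 38.4 CPM at day 4 (log2 change 2.64, SE 0.21, adjusted p = 1.3e-06). Both days had these transcripts in every library, at far higher levels on day 7. Dcn, the proteoglycan decorin, averaged 107 ± 2.56 CPM at day 7 against 16.9 ± 4.71 CPM at day 4 (log2 change 2.68, adjusted p = 1.34e-06). Ptn, the growth factor pleiotrophin, had 49, 92 and 60 counts in the day 7 libraries, against 2, 1 and 4 in the day 4 libraries (log2 change 5.12, adjusted p = 1.04e-05). Sparc, Cxcl12, Serping1, C1s1, Mmp2 and Ctsk, described above, are also expressed by fibroblasts, and the part of fibroblast RNA in their changes was not tested.

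Of 20 listed T and NK cell genes 12 had enough counts to test, and 10 of them rose, with a median log2 change of 3.48. Genes near 0 at day 4, such as Gzma, could enter the test only through groups where they were higher. This count and median therefore lean toward genes that rose. The summed level of the list was 187, 142 and 144 CPM at day 7, against 84.7, 85.9 and 76.0 CPM at day 4. Gzma, the protease granzyme A, had 90, 53 and 31 counts in the day 7 libraries, against 2, 2 and 1 in the day 4 libraries, a ratio of 43.6 with an exact 95% interval of 18.3 to 136 for counting error. Nkg7, a protein of cytotoxic granules, had 12.6, 7.80 and 10.8 CPM at day 7, against 1.03, 0.968 and 0.47 CPM at day 4 (log2 change 3.65, SE 0.47, adjusted p = 0.000125). Klrk1, the receptor NKG2D, averaged 28.3 ± 4.71 CPM at day 7 against 7.72 ± 0.857 CPM at day 4 (log2 change 1.87, adjusted p = 0.000639). Each was higher in every day 7 library. Cd3e, Cd8a, Cd8b1, Gzmb, Ncr1, Klrb1c, Foxp3 and Icos were too low to test. T cells make Ccl5, named above, and the part of T and NK cell RNA in that change was not tested.

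Red cell transcripts were lower. The summed level of the red cell list was 102, 124 and 106 CPM at day 7, against 1121, 448 and 1015 CPM at day 4, and 4 of 5 tested genes fell. Hbb-bs†, an adult β globin, had 27.1, 35.1 and 29.3 CPM at day 7, against 338, 128 and 300.4 CPM at day 4 (log2 change -3.06, SE 0.44, adjusted p = 0.00163), with every day 7 value below. The α and β globin genes have near-identical copies, so the division of counts among them is uncertain. Neutrophil genes summed to 236 ± 22.6 CPM at day 7 against 229.7 ± 15.2 CPM at day 4, with 2 of 14 that fell (1 without day 7 library 1 or 2 or day 4 library 3), Ly6g, Elane and Mpo too low to test and Stfa2 at 0. Muscle fibre genes summed to 160.5 ± 30.4 CPM at day 7 against 122 ± 12.5 CPM at day 4, with 1 of 12 that rose, the troponin gene Tnnc2†, whose call was lost without day 7 library 3 or day 4 libraries 1 or 2 (adjusted p up to 0.104). Mast cell, basophil and eosinophil genes summed to 24.2 ± 2.86 CPM at day 7 against 18.8 ± 0.23 CPM at day 4 with none of 6 called. Mmp8, above, belongs to the neutrophil list, and the part of neutrophil RNA in its change was not tested.

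**Figure D4:**
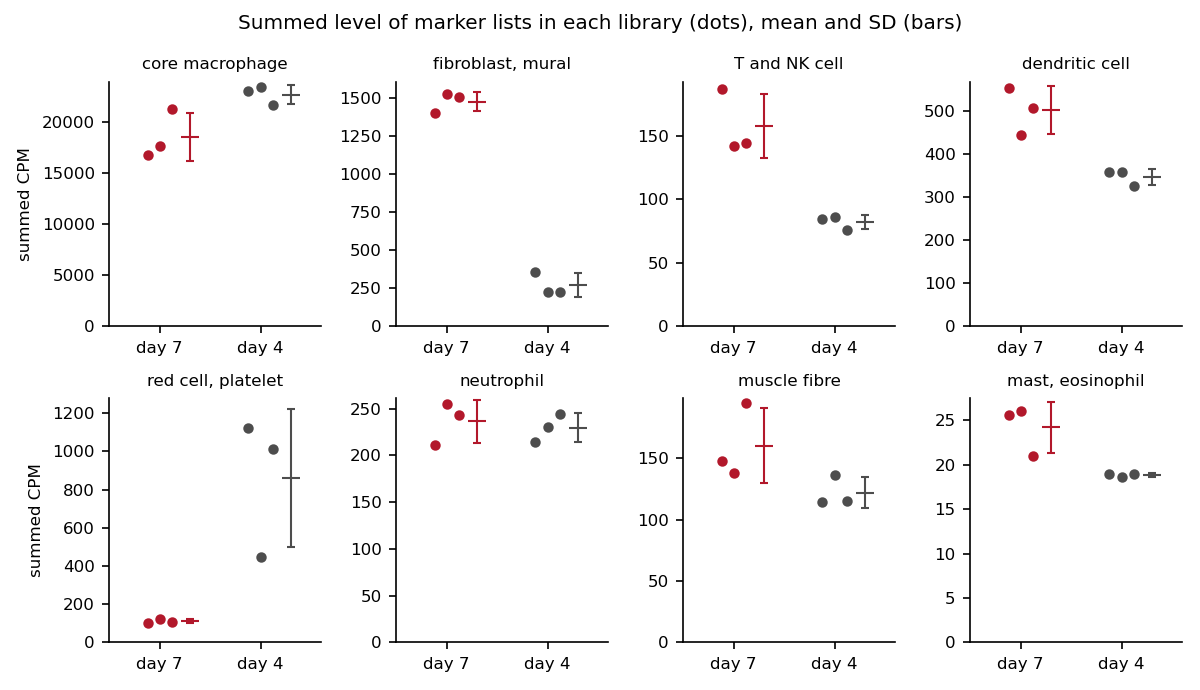
Summed CPM of 8 marker lists in each control muscle library (dots), day 7 left and day 4 right in each panel, with the mean and SD of 3 libraries as bars. Fibroblast, T and NK cell and dendritic cell sums lie higher in every day 7 library and red cell sums lower, and the neutrophil sums of the days overlap.

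By the rule of the 15 largest changes in each direction, the genes that rose most were, beside Gzma, Ptn and Nkg7, Angptl1, C1qtnf3, Mfap2, Timp4, Itm2a, Thbs4, Clec3b, Mfap4, Col16a1, Aspn, Sgce and Meg3, with log2 changes of 3.35 to 5.10. Mfap2, Mfap4, Col16a1, Aspn and Thbs4 encode proteins of the extracellular matrix. Angptl1, Timp4, Clec3b and Col16a1 averaged 0.194, 0.38, 0.476 and 0.699 CPM at day 4. Genes this low at day 4 could enter the test only through groups where they were higher. The ranking of such genes is therefore a description only. Thbs4, the matrix protein thrombospondin 4, had 15.7, 16.2 and 11.7 CPM at day 7, against 0.413, 1.94 and 1.10 CPM at day 4 (log2 change 3.63, adjusted p = 1.04e-05). Angptl1, an angiopoietin-like secreted protein, had 93 counts over the day 7 libraries, against 3 over the day 4 libraries, a ratio of 38.9 with an exact 95% interval of 12.9 to 192 for counting error. The call of Sgce was lost without day 7 libraries 1, 2 or 3 or day 4 libraries 2 or 3 (adjusted p up to 0.119). The genes that fell most were led by Saa3†, an acute phase protein of macrophages and stromal cells, with 15.5, 18.1 and 11.1 CPM at day 7, against 150.5, 61.0 and 216 CPM at day 4 (log2 change -3.24, SE 0.53, adjusted p = 0.00423). All day 7 values were lower, although day 4 values differed among themselves. After the 4 globins and Arg1 came Gal3st4†, a sulfotransferase, the serotonin receptor gene Htr2b†, Bach2os†, Ppbp, Mmp8, Prtn3†, Gm14461, Ctsl† and Spp1†, with log2 changes of -2.57 to -1.77. Htr2b averaged 2.20 ± 0.526 CPM at day 7 against 11.8 ± 1.81 CPM at day 4 (log2 change -2.44, adjusted p = 0.000163). The call of Gal3st4† was lost without day 7 libraries 2 or 3 or day 4 library 2 (adjusted p up to 0.0972), that of Prtn3† without day 7 libraries 1 or 2 or day 4 library 3 (adjusted p up to 0.0843), that of Ppbp, a platelet chemokine, without day 7 libraries 1, 2 or 3 or day 4 libraries 2 or 3 (adjusted p up to 0.108), and that of Gm14461 without day 7 libraries 1 or 2 or day 4 libraries 1 or 2 (adjusted p up to 0.102).

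The same interval in Treg-depleted muscle, 3 libraries a day, served to show where the control change differed. In depleted muscle 2502 genes (19.4%) changed between day 7 and day 4, 1377 upward (10.7%) and 1125 downward (8.72%). Of the 935 genes that changed in control muscle 680 also changed in depleted muscle, 659 in the same direction and 21 in the opposite one. The difference between the control and the depleted change was tested directly, and 311 genes passed (2.41%), with 106 (0.821%) where the control change was the higher and 205 (1.59%) where it was the lower. An unadjusted p under 0.05 was found for 1735 genes. Between 154 and 250 genes passed without 1 control library, the lowest number without day 7 library 3. Of the 935 genes 83 also passed this test of a difference.

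Several genes of the IL-4 and IL-13 response differed in their time change. Arg1 was lower at day 7 in control muscle, as given above, whereas in depleted muscle it was at 773 ± 57.8 against 201 ± 135 CPM for day 7 against day 4 (difference -4.71, SE 0.70, adjusted p = 0.00814). Retnla† rose in control muscle, and in depleted muscle it was at 11660 ± 3350 against 315 ± 194 CPM (difference -3.16, SE 0.66, adjusted p = 0.037). That difference was lost without day 7 libraries 1, 2 or 3 or day 4 library 2 (adjusted p up to 0.0742), without the filter on low counts (adjusted p = 0.109) and with a replicate block (adjusted p = 0.0751). Of 23 genes of that list 10 had a lower change in control than in depleted muscle and none a higher one. Chil3† fell in control muscle and was at 1692 ± 157 against 102 ± 23.9 CPM in depleted muscle (difference -5.33, SE 0.35, adjusted p = 4.23e-07). For Arg1 and Chil3 the direction was opposite between control and depleted mice. Mgl2† and Ear2† rose in both, less in control muscle (difference -1.52, SE 0.31, adjusted p = 0.0139 and difference -3.27, SE 0.43, adjusted p = 0.00121).

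Many glycolysis and hypoxia genes differed too. Of 36 tested genes 20 had a lower change in control muscle and none a higher one, and 22 rose and none fell in depleted muscle. Gapdh†, a glycolytic enzyme, was at 1611 ± 237 against 1221 ± 97.7 CPM in depleted muscle (difference -1.0, SE 0.19, adjusted p = 0.00814). Aldoa†, aldolase A, averaged 974 ± 68.6 CPM at day 7 against 1244 ± 91.7 CPM at day 4 in control muscle, where it did not pass, and 1845 ± 323 against 909.7 ± 144 CPM in depleted muscle (difference -1.37, SE 0.21, adjusted p = 0.00197). Vegfa, the vascular growth factor, averaged 16.2 ± 6.11 CPM at day 7 against 16.6 ± 5.54 CPM at day 4 in control muscle and 49.3 ± 21.0 against 8.61 ± 2.70 CPM in depleted muscle (difference -2.51, SE 0.49, adjusted p = 0.0123). Matrix protease genes had 6 of 19 members with a lower control change, among them Mmp12 (difference -1.93, SE 0.24, adjusted p = 0.000248).

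Genes of resident macrophages differed the other way, with 6 of 21 higher and 1 lower in the control change. Cx3cr1 had a smaller fall in control muscle than in depleted muscle, where it was at 36.8 ± 2.53 against 266 ± 29.1 CPM for day 7 against day 4 (difference 2.29, SE 0.19, adjusted p = 3.88e-06). Folr2 did not pass in control muscle and was at 119 ± 6.05 against 418 ± 112 CPM in depleted muscle (difference 1.27, SE 0.26, adjusted p = 0.0139). Stab1 fell in both and was at 51.0 ± 15.2 against 369 ± 55.4 CPM in depleted muscle (difference 1.26, SE 0.28, adjusted p = 0.0223), a difference whose call was lost without day 7 libraries 2 or 3 or day 4 libraries 2 or 3 (adjusted p up to 0.0682). Mef2c, a transcription factor shared with muscle and microglia, averaged 219 ± 25.5 CPM at day 7 against 211 ± 20.2 CPM at day 4 in control muscle and 69.2 ± 8.82 against 213 ± 40.6 CPM in depleted muscle (difference 1.67, SE 0.21, adjusted p = 0.000378). Hpgds, which makes prostaglandin D2, averaged 71.0 ± 10.2 CPM at day 7 against 83.4 ± 10.3 CPM at day 4 in control muscle and 16.5 ± 5.65 against 98.7 ± 13.4 CPM in depleted muscle (difference 2.32, SE 0.28, adjusted p = 0.000248). Tnf rose in control muscle and was at 17.4 ± 1.00 against 25.3 ± 4.02 CPM in depleted muscle (difference 1.37, SE 0.25, adjusted p = 0.0066). Its list was split, with 2 of 17 tested inflammatory cytokine genes higher and 2 lower in the control change. Of 13 tested CC chemokine genes 4 were higher and 4 lower. No gene of the class II list passed the test of a difference, and of the immediate early list 2 genes had a lower control change and none a higher one.

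Eosinophil genes were among those with large differences. Prg2, the major basic protein of eosinophil granules, had 1.24, 2.67 and 3.88 CPM at day 7, against 2.27, 1.74 and 2.66 CPM at day 4 in control muscle, and averaged 177 ± 60.0 against 3.13 ± 1.20 CPM for day 7 against day 4 in depleted muscle (difference -5.67, SE 0.60, adjusted p = 6.13e-05). Rnase2a†, an eosinophil ribonuclease, had 7.02, 2.67 and 3.29 CPM at day 7, against 3.30, 1.94 and 0.783 CPM at day 4 in control muscle, and averaged 288 ± 29.4 against 2.98 ± 1.56 CPM in depleted muscle (difference -5.42, SE 0.65, adjusted p = 0.000248). Neither gene was called between the days in control muscle. Of 14 listed mast cell, basophil and eosinophil genes 6 were tested. Of these 6, 4 rose in depleted muscle, and 4 had a lower control change. Genes low elsewhere could enter the test through the depleted day 7 libraries, where they were high. These counts therefore lean toward such differences and are a description only. Serpina11†, which is not a member of this list, also differed. It had 0 counts in control day 7 libraries and 167 in depleted day 7 libraries, at least 51.2-fold lower in control, with a floor of 3 counts over the group. Arg1, Retnla, Chil3 and Ear2 belong to the type 2 immune response, in which eosinophils take part, and the part of eosinophil RNA in their differences was not tested.

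**Figure D5:**
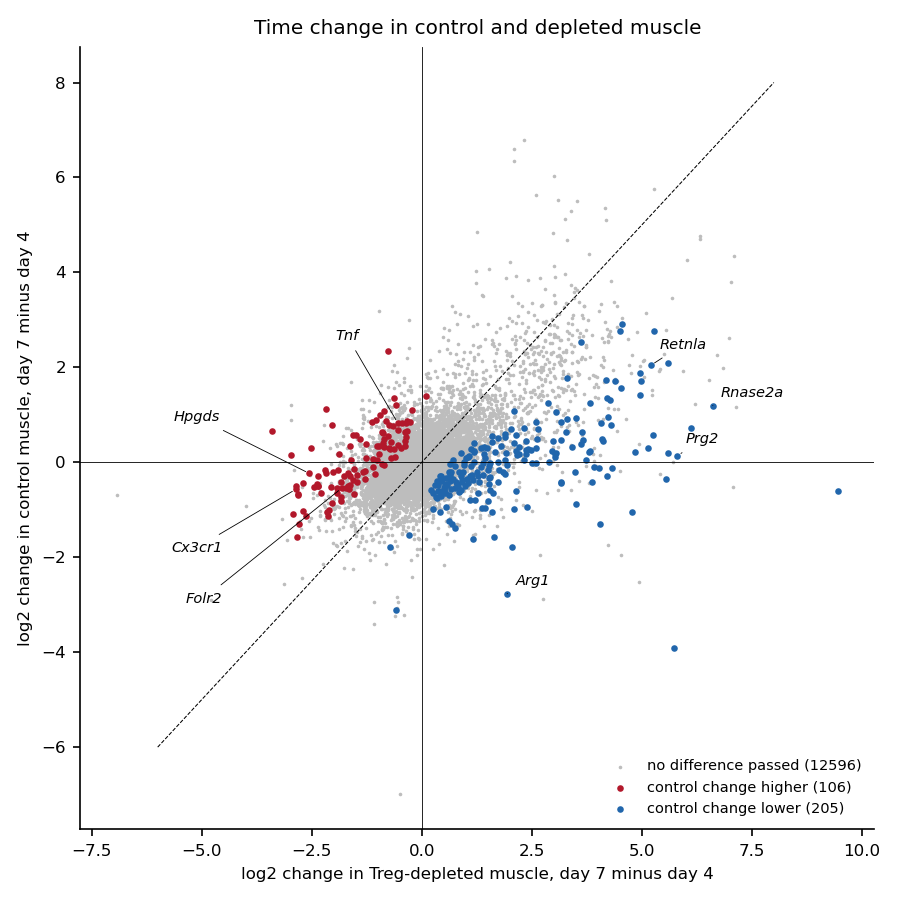
Log2 change, day 7 minus day 4, in control muscle (vertical axis) against Treg-depleted muscle (horizontal axis) for 12907 genes, with a dashed line where both are equal. Red points are the 106 genes with a higher control change and blue points the 205 with a lower one. Arg1 lies below 0 on the vertical axis and above 0 on the horizontal axis, and Cx3cr1 lies farther below 0 in depleted muscle.

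Control skin, from wild-type mice of the same age and toxin dose with 4 libraries a day, gave 336 genes that changed between day 7 and day 4 (2.34% of 14340), 209 upward (1.46%) and 127 downward (0.886%). Of the 935 muscle genes 60 also changed in skin, 56 in the same direction. The difference between the muscle and skin changes passed for 83 genes (0.579%), 42 (0.293%) higher and 41 (0.286%) lower in muscle, and 1634 had an unadjusted p under 0.05. Only 19 to 34 genes passed without 1 muscle library, the lowest number without day 4 library 1, and 304 passed when the 4 compared groups were fitted alone. Of the 935 genes 55 passed the test of a difference.

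Myc rose in muscle and was at 40.5 ± 11.7 against 41.7 ± 5.32 CPM in skin for day 7 against day 4 (difference 1.53, SE 0.33, adjusted p = 0.0203). Klf4 rose in muscle and was at 172 ± 7.56 against 200.2 ± 13.3 CPM in skin (difference 1.04, SE 0.22, adjusted p = 0.0186). Clec4b1† rose in muscle and was at 65.3 ± 7.98 against 52.2 ± 8.21 CPM in skin (difference 1.44, SE 0.30, adjusted p = 0.0148). These 3 genes were higher in the muscle change, with the difference in Myc lost without day 7 libraries 1 or 3 or day 4 libraries 1 or 3 (adjusted p up to 0.0866), that in Klf4 without day 7 libraries 2 or 3 or day 4 library 1 (adjusted p up to 0.0761) and that in Clec4b1 without day 4 libraries 2 or 3 (adjusted p up to 0.0627). The muscle change was lower for Ctsd†, at 1334 ± 409.8 against 1461 ± 101 CPM in skin (difference -1.14, SE 0.27, adjusted p = 0.0378). It was also lower for Itgb5†, at 84.9 ± 26.1 against 79.8 ± 10.2 CPM in skin (difference -1.55, SE 0.31, adjusted p = 0.0138). Irf8 was at 118 ± 34.4 against 111 ± 3.29 CPM in skin (difference -0.85, SE 0.21, adjusted p = 0.0451). Vsir, which encodes the checkpoint ligand VISTA, had 253, 242 and 272 CPM at day 7, against 425, 410.3 and 394 CPM at day 4 in muscle and 256 ± 25.4 against 249.9 ± 35.3 CPM in skin (difference -0.72, SE 0.17, adjusted p = 0.0361). The differences in Ctsd, Irf8 and Vsir were each lost without any 1 of the 6 muscle libraries, and that in Itgb5 without day 4 library 1 (adjusted p up to 0.0579). Mmp8 fell in muscle and was at 41.3 ± 8.96 against 29.9 ± 5.32 CPM in skin (difference -2.61, SE 0.49, adjusted p = 0.01), a difference lost with limma-voom (adjusted p = 0.0559). Id3, an inhibitor of helix-loop-helix factors, rose in muscle and was at 63.2 ± 7.90 against 74.7 ± 15.3 CPM in skin (difference 1.38, SE 0.34, adjusted p = 0.0439). Nkg7, a granule protein of cytotoxic lymphocytes, rose in muscle and was at 1.50 ± 0.287 against 1.65 ± 1.54 CPM in skin (difference 3.68, SE 0.90, adjusted p = 0.0418). The differences in Id3 and Nkg7 were each lost without any 1 of the 6 muscle libraries. For other genes, a p over the threshold does not show that the tissues changed alike.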

How the data were processed

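One table held bone, muscle and skin. Its values are estimated counts per gene as deposited by the authors, and the submitters' processing notes name STAR, featureCounts and limma, with both GRCm38 and GRCm39. Per the labels' protocols, the 3′ libraries carried unique molecular identifiers. Their collapse and the tools' versions are not stated in the sources at hand. A share of 19.4% of non-zero values differed by more than 0.01 from an integer, so values were rounded to whole counts. Gene coordinates are from GENCODE M21 (GRCm38), to which 52029 identifiers matched, and promoter sequences are from RefSeq (GRCm38.p6).

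Tests used edgeR 4.0.16 in R 4.3.3 (TMM, filterByExpr, robust quasi-likelihood fits, Benjamini-Hochberg adjustment over all genes tested, threshold 0.05), and adjusted p-values of single genes come from these fits. The 4 muscle groups were fitted together. For the difference from skin, all 12 groups of the table were fitted together. The SE was obtained by dividing the size of the log2 change by the root of the F statistic. CPM divided the rounded counts by the library totals of the genes tested in the fit, multiplied by its TMM factors. Alternatives were relative log expression factors, no filter, DESeq2 1.42.0, limma-voom (limma 3.58.1), the compared groups alone, a replicate block and leaving out each of the 6 libraries. Intervals and floors cover counting error only. In simulated data for the comparison of days, with 12642 genes, 200 changes were placed in genes with a mean of at least 5 CPM. Of these, 65% of 2-fold and 100% of 4-fold changes were recovered. Recovery at lower levels was not measured. Of 181 calls 16 were false, a larger share than the threshold of 0.05.

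Groups follow the labels. Genes were named by rule: called, at least 5 CPM in 1 group and no overlap between days, then the 15 largest changes a direction, the 5 largest a direction in each list, a panel of 25 genes whatever its result, and the 6 largest a direction of each test of a difference with every list member called there. Members and lists were chosen with earlier results of these data known. Chi-square values per degree of freedom of 6.60 to 9.47 between libraries of a group exceeded counting noise, so no library was a copy of another. This does not show that each came from its own mouse. Some genes that meet these rules are not reported here.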

Additional observations from a re-analysis of the deposited data

Results flagged for a closer look

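Results stood out here because the control muscle change differed from that of another group by a test of the difference itself. Against Treg-depleted muscle 311 genes passed, and against control skin 83 passed. Values below are differences of log2 changes, with means ± SD for day 7 against day 4.

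Among genes followed whatever their result, Arg1 differed from depleted muscle by -4.71, Cx3cr1 by 2.29, Tnf by 1.37 and Folr2 by 1.27, with levels as given above. The 6 lowest differences were in genes at low levels in control muscle on both days. Col6a5, a collagen chain, had a fitted difference of -10.06, with 2 counts at day 7 and 4 at day 4 in control muscle. In depleted muscle it had 266 and 0 counts, at least 88.3-fold higher at day 7 with a floor of 3 counts over the group. Serpina11† had a fitted difference of -9.65, with 0 and 6 counts in control muscle and 167 and 3 in depleted muscle. Both fitted values depend on the prior count. Gm4956 differed by -5.91, with 11 and 18 counts in control muscle and 324 and 7 in depleted muscle. Chil4†, a chitinase-like protein, differed by -5.82, with 4 and 11 counts in control muscle and 175 and 6 in depleted muscle. Prg2 differed by -5.67 and Rnase2a† by -5.42.

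The 6 highest differences from depleted muscle were the following. Gpr162, an orphan receptor, differed by 4.06, at 7.12 ± 1.44 against 4.50 ± 1.65 CPM in control muscle and 0.555 ± 0.428 against 6.21 ± 1.12 CPM in depleted muscle. Rapsn, which anchors acetylcholine receptors, differed by 3.13, at 10.4 ± 1.03 against 9.28 ± 3.37 CPM in control muscle and 1.59 ± 1.38 against 13.6 ± 0.903 CPM in depleted muscle. Tlr3, a sensor of double-stranded RNA, differed by 2.82, and Hpgd, which breaks down prostaglandins, by 2.82. Fcrl1 differed by 2.38 and Hpgds by 2.32. The call of Gm4956 was lost without day 7 libraries 1, 2 or 3 or day 4 library 3 (adjusted p up to 0.586), that of Chil4 without day 4 library 3 (adjusted p up to 0.142), that of Tlr3 without day 7 libraries 2 or 3 or day 4 libraries 1 or 2 (adjusted p up to 0.103) and that of Fcrl1 without day 7 libraries 1, 2 or 3 or day 4 libraries 2 or 3 (adjusted p up to 0.108). The difference of Gm4956 was -3.64 without day 4 library 3.

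Against skin, Mmp8 differed by -2.61. Ctse, cathepsin E, differed by -4.25, at 0.78 ± 0.327 against 2.71 ± 1.19 CPM in muscle and 7.12 ± 1.81 against 1.25 ± 0.639 CPM in skin, a call lost without day 7 library 2 or day 4 library 1 (adjusted p up to 0.0579). Angptl1 differed by 5.37, at 7.22 ± 0.733 against 0.194 ± 0.335 CPM in muscle and 1.27 ± 0.63 against 1.61 ± 0.835 CPM in skin, a call lost without day 7 libraries 1, 2 or 3 or day 4 libraries 1 or 3 (adjusted p up to 0.151). Thbs4 differed by 4.18, at 14.5 ± 2.50 against 1.15 ± 0.762 CPM in muscle and 0.993 ± 0.539 against 1.62 ± 1.46 CPM in skin, a call lost without any 1 of the 6 libraries (adjusted p up to 0.127). Nipal3 differed by -2.29, Ccdc125 by -1.96, the kinase gene Eef2k by -1.95 and Spsb1 by -1.75. Their calls were lost for Nipal3 without day 7 libraries 1 or 3 or day 4 libraries 1 or 2 (adjusted p up to 0.106), for Ccdc125 without day 7 libraries 2 or 3 or day 4 library 2 (adjusted p up to 0.116), for Eef2k without day 7 libraries 2 or 3 (adjusted p up to 0.0578) and for Spsb1 without any 1 of the 6 libraries (adjusted p up to 0.127). Gm23472 had a fitted difference of 5.72, with 12 counts at day 7 and 0 at day 4 in muscle, at least 5.02-fold higher with a floor of 3 counts over the group, and its call was lost without day 4 libraries 1, 2 or 3 (adjusted p up to 0.0705). Gm54931 differed by 5.52, Gm56077 by 4.36 and Gm56244 by 3.81. These 3 genes were high in day 7 library 2, at 12.1, 120.1 and 54.6 CPM, and low in the other muscle libraries. Without that library their differences were 2.90, 2.13 and 2.10 and did not pass, and each call was also lost without any 1 of the day 4 libraries.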

How the results depend on the processing

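Of the alternatives to the 935 genes called in control muscle, relative log expression factors gave 933, no filter on low counts 1258, DESeq2 1058, limma-voom 941 and the 2 days alone 1162. Leaving out 1 library gave 527 to 760. Without genes whose counts may be divided or whose sharing could not be measured, an alternative chosen after seeing the data, 710 were left. For the difference from depleted muscle, 311 genes became 583 without a filter, 497 with DESeq2, 207 with limma-voom and 154 to 250 without 1 library. For the difference from skin, 83 became 400 without a filter, 179 with DESeq2, 304 with the compared groups alone and 19 to 34 without 1 library. The cause was not tested. Of 166 called genes that the naming rule covers, 100 kept their direction and their side of the threshold under every alternative. Direction turned for 3 uncalled genes when 1 library was left out. Their ranges were -0.14 to 0.03 for Fos (0.03 without day 7 library 1), -0.24 to 0.41 for Mki67 (-0.24 without day 7 library 2) and -0.07 to 0.41 for Nfix (-0.07 without day 7 library 1).

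Libraries with the same replicate number in their titles did not deviate together (correlations of -0.0162, 0.0451 and 0.0413), and not every library correlated best with its own number. The column headers number the libraries in another order. A pairing by header number was not tested, here or with the block below. With the replicate number as a block, 997 genes were called in control muscle, 317 for the difference from depleted muscle and 81 for that from skin. Day 7 libraries held fewer counts than day 4 libraries, which limits calls of low genes.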

Other observations

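Several further lists held few calls, and each call named here was lost when some single libraries were left out. Of all genes tested 4.49% rose and 2.75% fell, and a count near these shares is no result about its list. Of 23 tested sterol synthesis genes 2 rose (0 without day 7 library 1, 0 without day 7 library 2, 0 without day 4 library 1, 0 without day 4 library 2, 1 without day 4 library 3) and none fell, with a median log2 change of 0.41. Idi1† averaged 12.3 ± 3.48 CPM at day 7 against 4.30 ± 1.08 CPM at day 4 (log2 change 1.51, adjusted p = 0.0253 in edgeR) and was lost without day 7 libraries 1 or 2 or day 4 libraries 1, 2 or 3 (adjusted p up to 0.132). Of 21 iron genes none rose and 1 fell, Hmox1, which breaks down haem, with 115 ± 16.7 CPM at day 7 against 249 ± 35.6 CPM at day 4 (log2 change -1.12, adjusted p = 0.0245), lost without day 7 libraries 1 or 3 or day 4 libraries 2 or 3 (adjusted p up to 0.11). Of 18 eicosanoid genes 2 rose and 1 fell, and without any 1 library at most 1 rose and none fell. Ptger4, a receptor for prostaglandin E2, averaged 24.0 ± 2.65 CPM at day 7 against 13.4 ± 1.66 CPM at day 4 (log2 change 0.83, adjusted p = 0.0133) and was lost without day 7 library 2 or day 4 libraries 1 or 2 (adjusted p up to 0.0642). Of 14 genes induced by glucocorticoids 3 rose (1 without day 7 library 2, 1 without day 4 library 3) and 1 fell (0 without day 7 library 2, 0 without day 7 library 3, 0 without day 4 library 1, 0 without day 4 library 2). Per1, a clock gene, averaged 39.2 ± 2.37 CPM at day 7 against 21.8 ± 5.16 CPM at day 4 (log2 change 0.85, adjusted p = 0.0142) and was lost without day 7 library 2 or day 4 library 3 (adjusted p up to 0.0863). Of 18 checkpoint and costimulatory genes 3 rose (1 without day 7 library 1, 1 without day 7 library 2, 1 without day 7 library 3, 1 without day 4 library 1) and 2 fell (1 without day 7 library 2, 1 without day 7 library 3, 1 without day 4 library 2, 1 without day 4 library 3). Cd86, a ligand of CD28, averaged 58.8 ± 4.47 CPM at day 7 against 37.5 ± 7.67 CPM at day 4 (log2 change 0.64, adjusted p = 0.0327) and was lost without day 7 libraries 1, 2 or 3 or day 4 libraries 1 or 3 (adjusted p up to 0.149).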
